A study of Mus musculus with 18 samples.

Results

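The comparison described here sets hippocampal RNA of mice in which neurons lack the microRNA genes Mir132 and Mir212 against that of their nontransgenic controls. The deletion mice have the genotype CaMKII-Cre::miR-132/212f/f: both microRNA genes are flanked by recombination sites, and Cre recombinase, made under control of the CaMKII promoter in excitatory neurons of the forebrain, removes them. The controls are given only as the non-transgenic controls of this conditional knockout, so they lack the recombinase. The labels do not say whether they carry the flanked alleles, and they give no age or sex of the animals. An effect of the recombinase cannot be told apart from that of the lost microRNAs. All animals are of the strain C57BL/6, and whole hippocampi were used, so every cell type of the tissue contributes and the deletion is directed at some of them.

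Of the 18 samples of the series, 6 belong to this comparison, 3 in each group, and each replicate is a pool: cDNA of 6 animals was combined into 3 replicates. Count columns of 4 libraries were analysed, 2 of the deletion and 2 of the controls. The third library of each group is not analysed here. Libraries carry the number in their column name, while the samples carry letters, so no library was tied to one sample. The table lists 10541 genes, all of which were used, with 1 entry per symbol. It lists 0 genes on chromosome X.

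MicroRNAs are short RNAs that guide Argonaute proteins to messages, mostly through pairing of the seed near their 5′ end with the 3′ untranslated region, and lower the translation or the stability of the message. Mir132 and Mir212 are transcribed together from a locus that neuronal activity and the transcription factor CREB switch on. They are known for effects on dendrites, spines and synaptic plasticity in the hippocampus, and loss of a microRNA is generally followed by modest increases of messages with seed sites.

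The mature sequences of both genes show what they share. From RefSeq (build GRCm38.p6), the main strands are given here with the seed, bases 2 to 8, in capitals.
mmu-miR-132-3p: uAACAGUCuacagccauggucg
mmu-miR-212-3p: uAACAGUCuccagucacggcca
Both 3p strands have the seed AACAGUC and so recognise the same site, GACTGTT, in a message. The strands from the other arm have seeds that differ from it and from each other.
mmu-miR-132-5p: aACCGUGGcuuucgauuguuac
mmu-miR-212-5p: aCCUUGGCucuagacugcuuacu

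Sites for the shared 3p seed lie in the 3′ untranslated regions of genes reported elsewhere as targets. Shown next are 30-base windows, or 29 for Ache, around a site in 3 of these genes whose counts are described further on, read on the message strand from the mm9 genome with GENCODE vM1 transcripts, with the bases that match a site in capitals.
Rb1, the retinoblastoma protein, chr14:73596093-73596122, minus strand: atttacaagcaGACTGTTAactatagaagc
Ache, acetylcholinesterase, chr5:137735666-137735694, plus strand: gccgccaataaACTGTTAcagccaccaga
Arhgap32, a GTPase-activating protein, chr9:32068766-32068795, plus strand: gctggacagtgGACTGTTctattttttttc
The window of Rb1 holds the longest form of site (GACTGTTA, called 8mer), that of Arhgap32 the form GACTGTT (7mer-m8), and that of Ache the form ACTGTTA (7mer-A1).

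Total counts were 9408155 and 9702801 in deletion libraries 1 and 2 and 9432812 and 8190899 in control libraries 1 and 2. The libraries were far from equally complete at these like totals. Deletion library 1 had 1047 genes without a count (9.93%), deletion library 2 had 120 (1.14%), and the control libraries had 90 and 73. For 1017 genes (9.65%), deletion library 1 was the only one of the 4 at 0. Among genes that the other 3 libraries placed at 100 to 200 expected counts, deletion library 1 missed 26.2%, deletion library 2 2.41%, control library 1 1.16% and control library 2 0.601%. No gene expected at 1000 counts or more was at 0 in any of the 4. A 0 in deletion library 1 therefore carries little information on a gene of modest level, and every value is given library by library.

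**Figure D1:**
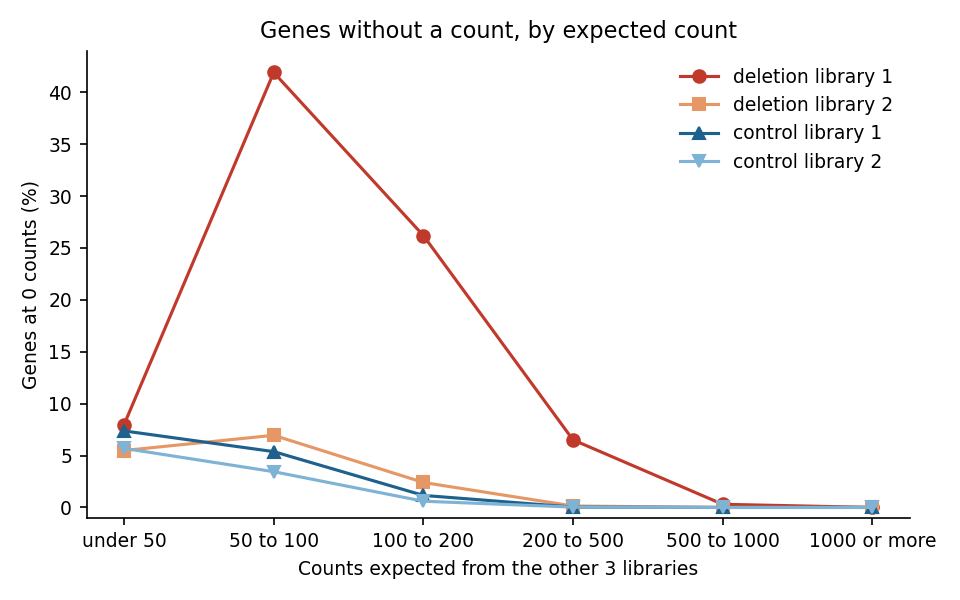
Share of genes without a count (vertical axis, percent) in each of the 4 libraries, by the count expected from the mean CPM of the other 3 (horizontal axis, classes of counts). Deletion library 1 reaches 41.9% at 50 to 100 expected counts and 26.2% at 100 to 200, while the other 3 libraries stay at or below 7.37% in every class.

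The libraries also differed in spread. On log2(CPM + 1), where CPM is the count of a gene scaled to a common library total, deletion library 1 lay beyond 2-fold of the control mean for 44.1% of the 10487 genes tested and deletion library 2 for 9.96%. The 2 controls lay beyond 2-fold of each other for 11.4%. Here and below, the controls are compared as 2 single libraries, while a deletion library is compared with a mean, which varies less. Deletion library 1 alone lay below both controls for 48.7% of genes and above both for 39.1%. Across genes, which are not independent replicates, the correlation of log2 values was 0.903 between the controls, 0.885 and 0.883 between deletion library 2 and the controls, and 0.656 to 0.662 between deletion library 1 and the controls. Between the 2 deletion libraries it was 0.630, the lowest of these values, so deletion library 1 was less like its own replicate than like either control. Deletion library 2 was thus about as near to each control as these were to each other. Among the 2336 genes with a mean of 1000 counts or more, the SD of the log2 difference from the control mean was 0.61 in deletion library 1 and 0.27 in library 2, and the SD of the difference between the controls was 0.33.

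The tissue label was checked on defining markers. Camk2a, the kinase subunit of excitatory synapses whose promoter drives the recombinase, had 1603 and 1699 CPM in the deletion against 1332 and 1441 in the control libraries. Snap25, a vesicle fusion protein of all neurons, had 4540.1 and 4154 against 3879.6 and 4311 CPM. Of 30 listed markers of dentate granule and CA field neurons, 28 were in the table. The log2 fold change was below 0 for 15 of them, with a median of -0.17, or 0.06 without deletion library 1. Both deletion libraries lay below both controls for 4 and above both for 2, against 17.8% and 14.7% of all genes tested. In deletion library 1, 3 of the 28 were at 0. Calb1, a calcium buffer of granule and CA1 cells, had 390.0 and 212 against 319.7 and 232 CPM. Prox1, the transcription factor that defines dentate granule cells, had 0 and 510 counts against 170 and 243. The neuronal markers named before it, which had counts in deletion library 1, lie at higher levels. That library had no count for 26.2% of genes expected at 100 to 200 counts and for 6.51% at 200 to 500. This 0 therefore says little about granule cells. In whole tissue, fewer cells of a type and less RNA per cell cannot be told apart, here and in all that follows.

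The targeted genes themselves do not check the labels, because neither Mir132 (mm9 chromosome 11, 74987167 to 74987267, plus strand) nor Mir212 (74986890 to 74986980, plus strand) is in the table. The 6 listed genes within 200 kb of Mir132 did not show a common direction. Ovca2, the nearest one, at 2178 bases, had 415 and 262 counts in the deletion against 350 and 195 in the control libraries. Hic1, a transcriptional repressor gene on the other side, had 0 and 108 against 34 and 12. Smg6, a nuclease of nonsense-mediated decay, had 50 and 397 against 335 and 383, so that deletion library 2 was at the control level and library 1 below it. Rtn4rl1, a Nogo receptor relative, had 819 and 1996 against 1043 and 1120. Only Rpa1, a single-stranded DNA binding protein, and Smyd4 had both deletion libraries below both controls, as did 17.8% of all genes tested. Rpa1 had 130 and 230 against 326 and 294 counts, and Smyd4 0 and 96 against 222 and 99 counts.

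Across the 10487 genes tested, edgeR's quasi-likelihood test called 0 genes at an adjusted p under 0.05 (Benjamini-Hochberg, a share of 0%), and 88 had an unadjusted p under 0.05 (0.839%), 56 of them higher in the deletion (0.534%) and 32 lower (0.305%). The biological coefficient of variation behind this test was 74.2%. Both deletion libraries lay below both controls for 17.8% of all genes tested and above both for 14.7%. DESeq2 called 5 genes (0.0486% of 10283) and limma-voom 1 (0.00954%). With 2 libraries a group, an exact two-sided permutation test of one gene cannot give a p below 0.3333. Replicates are described as pools, so p-values measure the spread between libraries made from pools, not between animals. That spread includes the incompleteness of deletion library 1 described above, which cannot be told apart here from differences between the pools. The statements that follow describe levels and directions, and no gene named in them passed the edgeR test over all genes unless a left-out library is named.

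The number of genes called turned on single libraries. Without deletion library 1 it was 8 (0.0763%), 7 of them lower. Without deletion library 2, when library 1 alone stood for the deletion, it was 4527 (43.0%), with 1688 higher and 2839 lower. Without either control library it was 1 (0.00949% each time). A lone library is assumed in these fits to vary like the others. Ttr encodes transthyretin, a carrier of thyroid hormone made by the choroid plexus. It was called each time a library was left out. Its log2 fold changes were -1.45 without deletion library 1 and -3.13 without deletion library 2. They were -2.13 without control library 1 and -1.99 without control library 2. With all libraries, edgeR did not call Ttr (adjusted p = 0.999), nor did DESeq2 (adjusted p = 0.495), while limma-voom did (adjusted p = 7.73e-05).

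Genes of the choroid plexus, the epithelium in the brain ventricles that makes cerebrospinal fluid, lay lower in the deletion libraries. Of 33 listed genes, 27 were tested; 26 had a log2 fold change below 0 and 20 had both deletion libraries below both controls, against 52.1% and 17.8% of all genes. Of these genes, 0 had both deletion libraries above both controls, and 6 had an unadjusted p under 0.05. The median log2 fold change was -1.63, against -0.03 over all genes tested. Deletion library 1 set much of this size: its median log2 difference from the control mean was -3.10 with 11 of the 27 genes at 0, while deletion library 2 had -0.63 with 1 at 0, and control library 1 minus control library 2 gave -0.47. Without deletion library 1 all 27 lay below 0 with a median of -0.87, and without deletion library 2 the median was -3.58. Deletion library 2 alone was below both controls for 20 of the 27 and above both for 0, against 34.2% and 34.3% of all genes. The list was chosen with earlier results of these data known, so its direction is no independent evidence.

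**Figure D2:**
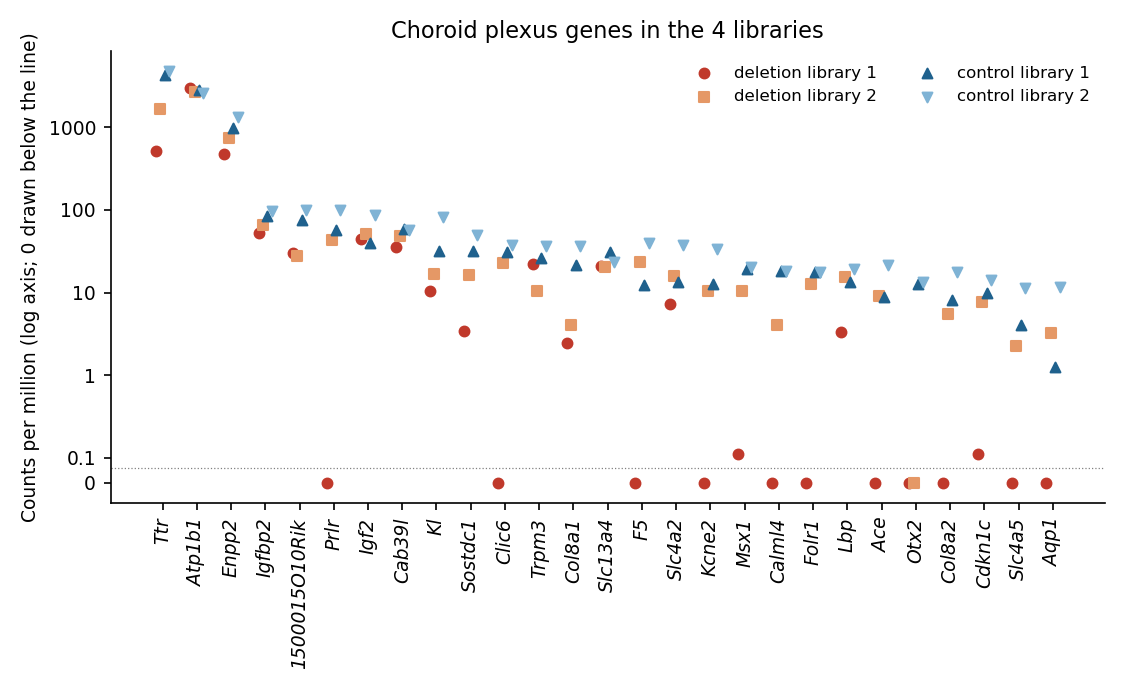
CPM (vertical axis, logarithmic, with 0 drawn below the dotted line) of the 27 choroid plexus genes tested, in the 4 libraries, 1 point per library with no averaging. Deletion library 2 lies below both controls for 20 genes, and 11 genes are at 0 in deletion library 1, among them Prlr with 42.7 to 99.6 CPM in the other 3 libraries.

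Secreted and carrier proteins gave the best measured part of this pattern. Ttr had 514 and 1652 CPM in the deletion against 4309 and 4750.4 in control libraries 1 and 2, so the groups were far apart while the 2 deletion libraries differed from each other more than the controls did. Enpp2, which makes the lipid signal lysophosphatidic acid (mm9 chromosome 15, 54670453 to 54751701, minus strand), had 469.6 and 743 against 987 and 1342 CPM, a log2 fold change of -0.94 (SE 0.28). The transcript 1500015O10Rik (chromosome 1, 43787447 to 43799409, plus strand) had 29.8 and 27.3 against 76.4 and 100.1 CPM, with deletion libraries that lay close together at 28.6 ± 1.75 CPM (SD, n = 2). Its log2 fold change was -1.63 in the full comparison, -1.69 without deletion library 1 and -1.56 without deletion library 2, and DESeq2 called it (adjusted p = 0.0279).

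In all, 6 of the 10 secreted and carrier genes tested had both deletion libraries below both controls, against 17.8% of all genes. These 6 were Ttr, Enpp2, 1500015O10Rik and the next 3 genes. Kl, the gene of klotho, a co-receptor shed into the cerebrospinal fluid, had 10.6 and 16.7 against 32.2 and 81.0 CPM. Sostdc1, a secreted inhibitor of BMP and Wnt signals, had 3.41 and 16.3 against 31.9 and 50.4 CPM, and Igfbp2, which binds insulin-like growth factors, 53.3 and 65.1 against 85.5 and 97.8 CPM. In the remaining 4 the groups overlapped, as in Igf2, a growth factor also made by the meninges, with 44.8 and 51.0 against 40.3 and 85.8 CPM.

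Among receptors, channels and transporters, deletion library 1 was mostly empty, and deletion library 2 lay nearer to the controls. Prlr, the prolactin receptor, had 0 and 422 counts against 545 and 821. Clic6, a chloride channel protein, had 0 and 226 against 293 and 310 counts. Folr1, the folate receptor of this epithelium, had 0 and 127 against 167 and 146 counts. For these 3 genes the size of the difference rests on deletion library 1, and the log2 fold changes without it were -0.87, -0.58 and -0.45. Kcne2, a potassium channel subunit, had 0 and 102 against 122 and 276 counts. The water channel gene Aqp1 had 0 and 32 against 12 and 97 counts and did not separate the groups. Atp1b1, a sodium pump subunit that neurons also express strongly, was the one tested member above 0, with 3018 and 2694 against 2817 and 2585 CPM.

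Regulators and matrix genes of the epithelium were low in both deletion libraries. Otx2, the homeobox gene that specifies choroid plexus (chromosome 14, 49277859 to 49282547, minus strand), had 0 counts in both deletion libraries against 122 and 110 in controls. Taken over the group with a floor of 3 counts, this is at least 82.7-fold lower, and at least 43.1-fold lower from deletion library 2 alone, a bound that covers counting error only. Beside it, 65 of 935 genes expected at 50 to 100 counts (6.95%) and 38 of 1579 at 100 to 200 (2.41%) had none in deletion library 2. With Otx2 at its bound the median of the list stayed at -1.63. Col8a1, a short-chain collagen (chromosome 16, 57624369 to 57754850, minus strand), had 22 and 40 counts against 206 and 304, so both deletion libraries were far below both controls. Calml4, a calmodulin-like protein, had 0 and 40 against 172 and 149 counts, and the homeobox gene Msx1 had 1 and 102 against 186 and 169.

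Summed over the 27 tested genes, the choroid plexus list had 4235 and 5535 CPM in the deletion libraries against 8757 and 9661 in controls. Ttr and Atp1b1, which neurons also express, together made up most of each sum, so the sums say little about the other members. The 2 tested genes of red blood cells, Hbb-b2 and Hba-a2 for the chains of hemoglobin, also lay lower in both deletion libraries, with 21 and 15 against 149 and 77 counts and 44 and 18 against 148 and 126 counts. Each shares reads with near-identical copies, so its counts are uncertain. The ventricle lining and the meninges also adjoin the hippocampus. Of the 5 ependymal markers tested, 3 lay below 0 with a median of -0.15, and 0 had groups that did not overlap. Of the 12 meningeal markers, 5 lay below 0 with a median of 0.15, and 1 lay lower and 2 higher without overlap, against 17.8% and 14.7% of all genes. The part of choroid plexus and blood RNA in the other results was not tested.

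The next question was whether messages with sites for the deleted microRNAs lay higher. Of 22 genes listed as reported targets, 18 were tested, and all 18 have at least 1 site of the 3p seed in their 3′ untranslated region (an 8mer in 7), where 21.5% of the 10204 genes with an annotated 3′ untranslated region have one and 2.86% have an 8mer. Only the message strand was searched, and an 8mer was not counted again as a 7mer. Of the 18, 13 had a log2 fold change above 0, against 47.9% of all genes tested. Both deletion libraries lay above both controls for 5 of them, Hbegf, Ache and Sox5 among these, against 14.7% of all genes, and below both for 1 (Rb1), against 17.8%. The median was 0.15, or 0.09 without deletion library 1 and 0.18 without deletion library 2, against -0.03 over all genes. For the same 18 genes, control library 1 minus control library 2 gave a median of -0.10 on log2(CPM + 1), where the deletion libraries had 0.18 and 0.10.

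Among the signalling targets, Hbegf, which encodes a heparin-binding growth factor of the EGF family, had 144 and 19.2 CPM in the deletion against 7.87 and 13.4 in the control libraries. The large difference came from deletion library 1, and without that library the log2 fold change of 2.94 (SE 1.02) became 0.86.

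For the cytoskeletal and enzyme targets the groups were closer. Ache, the enzyme that ends cholinergic signals, had 90.4 and 72.8 against 60.4 and 69.2 CPM (log2 fold change 0.33, SE 0.38). Mapt, the gene of tau, had 719 and 466 against 504 and 502 CPM, so deletion library 1 was high while library 2 was below both controls, and the sign turned without library 1 (-0.11). Arhgap32, also called p250GAP, restrains small GTPases in spines and is one of the targets tied to the effects of miR-132 on dendrites. It had 132 and 70.3 against 99.5 and 125 CPM, with the deletion libraries on either side of the controls.

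The targets in chromatin and transcription were not all higher either. Sirt1, a deacetylase, had 26.3 and 16.9 against 36.0 and 25.4 CPM. Sox5, a transcription factor with all 3 forms of site, had 28.6 and 13.4 against 12.4 and 12.7 CPM, and most of the difference was in deletion library 1. Rb1, which restrains the cell cycle and has an 8mer, had 4 and 341 counts against 383 and 403. Its fitted log2 fold change was -1.35 with all libraries and -0.36 without deletion library 1.

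Over all genes, the medians with and without a site for the shared seed lay close together. The 292 genes with an 8mer had a median log2 fold change of 0.01, those with a 7mer-m8 but no 8mer (1080 genes) -0.05, those with a 7mer-A1 only (826 genes) -0.06, and the 8006 genes without a site -0.02. Both deletion libraries lay above both controls for 19.9% of the 8mer genes and 14.4% of genes without a site, and below both for 15.8% and 17.8%. In deletion library 2 the median log2 difference from the control mean was 0.07 for 8mer genes and 0.00 without a site, while in deletion library 1 it was -0.09 and -0.12. The classes are not matched: 8mer genes had a median 3′ untranslated region of 2156.5 bases against 1086.5 without a site, and 7.19% against 10.4% were at 0 in deletion library 1. Genes with 3000 bases or more were split into those with an 8mer or 7mer-m8 (510 genes) and those without a site (876 genes). Their medians were 0.07 and 0.02 in deletion library 2, but -0.18 and -0.07 in deletion library 1. In the shorter length classes, genes with a site also lay higher in some classes and lower in others, in each deletion library. These differences were not tested, because genes are not replicates.

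**Figure D3:**
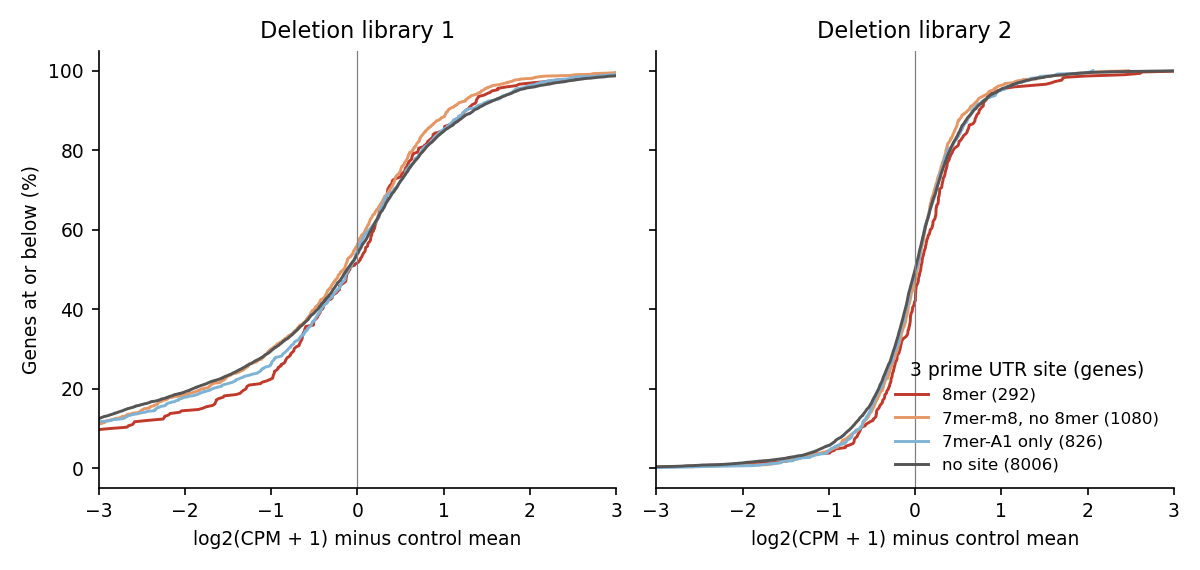
Cumulative share of genes (vertical axis, percent) by the difference of a deletion library from the mean of the controls in log2(CPM + 1) (horizontal axis, drawn from -3 to 3), for genes grouped by the strongest 3p seed site in the 3′ untranslated region; deletion library 1 on the left and 2 on the right. The curves nearly coincide in each library, with medians of -0.09 (8mer) and -0.12 (no site) in library 1 and 0.07 and 0.00 in library 2.

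Sites for the 5p strands gave medians as close to 0, with -0.04 over 401 genes with a 7mer-m8 for miR-132-5p and 0.01 over 1433 genes with one for miR-212-5p. Of the 8mer genes for the 3p seed, the one with the smallest p was Prkaa2, the catalytic subunit of the energy sensor AMPK. It had 157 and 109 CPM in the deletion libraries against 63.1 and 62.1 in controls.

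Prkaa2 is also among the 10 genes of smallest p that lay higher in both deletion libraries with at least 10 counts in every library. The replicates lay close together in Tmem25, an immunoglobulin-type membrane protein of neurons (chromosome 9, 44601862 to 44607299, minus strand). It had 107 and 110.2 CPM against 44.5 and 41.5, so the spread within each group was small beside the difference (log2 fold change 1.33, SE 0.36). Leaving out any 1 library moved this only between 1.28 and 1.39, and DESeq2 called it (adjusted p = 0.00746).

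Tmem25 has a neighbour in the same set. Mll1, also called Kmt2a, a histone H3 lysine methyltransferase, ends 4138 bases upstream of Tmem25 on the same strand (44611438 to 44689357). It had 299.8 and 271 against 180.4 and 163 CPM. A second histone methyltransferase gene of the set, Ehmt2, which encodes G9a, had 174 and 137 against 79.7 and 74.6 CPM. Eid2, an inhibitor of histone acetylation, had 206 and 141 against 84.5 and 81.2 CPM. The list of histone enzymes as a whole did not lie higher: of 47 tested, 33 were below 0 with a median of -0.23, and the median became -0.03 without deletion library 1. Without overlap, 11 lay lower and 7 higher, against 17.8% and 14.7% of all genes.

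The other higher genes of the set have unlike roles. Coro7, a coronin of the Golgi that regulates actin (chromosome 16, 4626884 to 4679720, minus strand), had 114 and 86.2 against 38.1 and 37.5 CPM (log2 fold change 1.41, SE 0.40), and DESeq2 called it (adjusted p = 0.037). Col19a1, a collagen made by interneurons in brain, had 133 and 85.9 against 38.6 and 44.4 CPM. Mpv17l, a peroxisomal and mitochondrial protein, had 289 and 161 against 84.8 and 109 CPM. In Slc41a2, a magnesium transporter, with 118 and 44.3 against 16.8 and 23.9 CPM, and in Cby1, an antagonist of beta-catenin, with 245 and 92.9 against 54.7 and 61.2 CPM, deletion library 1 was more than 2-fold above deletion library 2.

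Besides Ttr, 1500015O10Rik, Enpp2 and Kl of the choroid plexus, 6 genes make up the 10 of smallest p that lay lower. Hspa5, which encodes the endoplasmic reticulum chaperone BiP (chromosome 2, 34627610 to 34632049, plus strand), had 279 and 275 CPM against 419 and 475. Its deletion libraries nearly coincided, at 277 ± 3.28 against 447 ± 39.5 CPM (SD, n = 2 each), a log2 fold change of -0.69 (SE 0.21) that was -0.70 without deletion library 1 and -0.67 without deletion library 2. Exosc9, a core subunit of the RNA exosome, had 19.8 and 30.8 against 97.3 and 68.6 CPM. Atxn2, the RNA-binding protein ataxin-2, had 59.3 and 82.7 against 139 and 157 CPM.

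The remaining 3 of these lower genes have unlike roles. Comt1, which inactivates catecholamines, had 65.6 and 83.1 against 142 and 149 CPM. Psma1, a proteasome subunit, had 68.5 and 106 against 165 and 170.0 CPM, and Tmem167, a small membrane protein of the secretory pathway, 73.3 and 96.8 against 190.1 and 137 CPM. In each of these 3 genes the log2 fold change kept its direction when any 1 library was left out. They were chosen with groups that do not overlap, so this could hardly come out otherwise and is no further support.

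**Figure D4:**
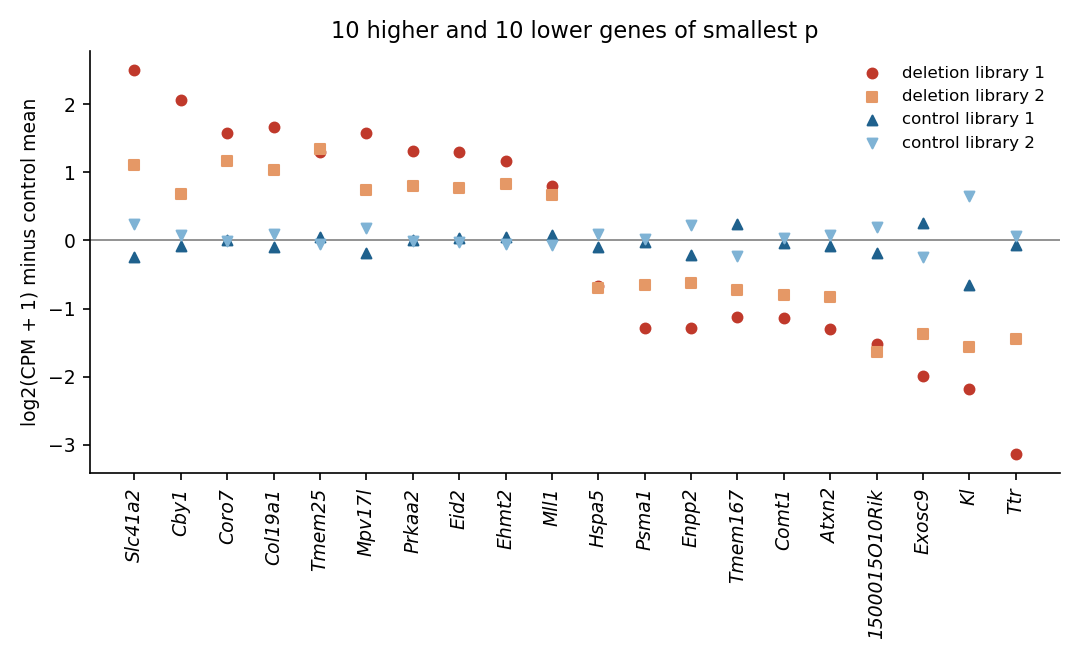
Difference of each library from the mean of the 2 controls in log2(CPM + 1) (vertical axis) for the 10 higher and 10 lower genes of smallest p, 1 point per library. The 2 deletion libraries nearly coincide for Tmem25, Mll1, Hspa5 and 1500015O10Rik, and stand apart for Slc41a2, Cby1 and Ttr. The gap between groups is part of how these genes were chosen.

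The relatives of Hspa5 did not share its size. Of 28 tested endoplasmic reticulum chaperones, folding enzymes and stress regulators, 18 had a log2 fold change below 0, with a median of -0.14 (-0.17 without deletion library 1). Without overlap, 6 lay lower and 2 higher, where 17.8% and 14.7% of all genes did. Creld2, a target of the unfolded protein response, had 27.7 and 16.8 against 29.9 and 32.5 CPM, and the disulfide isomerase Pdia4 23.1 and 26.7 against 37.9 and 33.7 CPM. Sel1l, of the degradation pathway, had 49.4 and 148 against 153 and 179.9 CPM, so that only deletion library 1 was far from the controls. The 2 that lay higher were Hyou1, a chaperone, with 46.3 and 18.6 against 17.3 and 17.7 CPM, and Herpud1, of the degradation pathway, with 93.1 and 114 against 85.5 and 69.2 CPM. For the RNA exosome around Exosc9, 10 of 15 subunits and cofactors tested were below 0 with a median of -0.18. Of these 15, 5 lay lower (17.8% of all genes) and 3 higher (14.7%) without overlap.

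Dendritic spines are where the microRNAs are best known to act, and the postsynaptic list lay slightly higher. Of 40 tested glutamate receptors, scaffolds, adhesion proteins and kinases, 27 were above 0, 11 lay higher without overlap (14.7% of all genes) and 2 lower (17.8%). The median was 0.21, with 0.22 in deletion library 1, 0.15 in deletion library 2 and -0.22 for control library 1 minus control library 2. The controls thus lay at least as far from each other as either deletion library lay from their mean. These measures are not fully alike, since a mean of 2 libraries varies less than a single library. Nlgn2, the neuroligin of inhibitory synapses (chromosome 11, 69636625 to 69648351, minus strand), had 188 and 162 CPM against 77.3 and 115. Dlg4, the gene of the postsynaptic scaffold PSD-95 (chromosome 11, 69832107 to 69859033, plus strand), had 289 and 232 against 127 and 185 CPM. For both genes control library 2 was the nearer control, and the log2 fold changes of 0.86 and 0.74 were 0.60 and 0.50 without control library 1.

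Homer2, a scaffold of metabotropic glutamate receptors, separated the groups more evenly, with 244 and 261 against 184 and 160.4 CPM (log2 fold change 0.55, SE 0.24). Nrgn, neurogranin, which binds calmodulin in spines, had 3363 and 1513 against 1398 and 1503 CPM. Deletion library 2 was at the control level, and without deletion library 1 the log2 fold change of 0.75 became 0.06.

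Genes that shape the spine skeleton did not lie to one side. Of 30 tested, 15 were above 0 with a median of 0.00, and 5 lay higher and 3 lower without overlap, against 14.7% and 17.8% of all genes. Within the list, Rhoa, a GTPase that drives actin contraction, had 75.0 and 52.6 against 23.2 and 24.9 CPM (log2 fold change 1.41, SE 0.53). The related GTPase Rac1, which promotes branched actin, had 600.0 and 492 against 369 and 476 CPM. Kalrn, an exchange factor for Rac1, had 226 and 211 against 162 and 168 CPM, with both groups tight and apart (log2 fold change 0.41, SE 0.24).

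On the presynaptic side, 28 of 41 tested genes were above 0 with a median of 0.10, which was 0.00 without deletion library 1. Unc13a, which primes vesicles, had 253 and 123 against 110.5 and 113 CPM, and the vesicle protein Sv2b 794 and 479 against 447 and 465 CPM, so both were high in deletion library 1 only. Syn2, a synapsin, had 1319 and 1127 against 969.9 and 1033 CPM. Stx1a, a fusion protein of the plasma membrane, had 135 and 111 against 146 and 212 CPM.

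Of 27 tested genes of inhibitory synapses and neurons, 18 were above 0 with a median of 0.11, which became -0.10 without deletion library 1. Without overlap, 4 lay higher and 4 lower, near the 14.7% and 17.8% of all genes. Of the 14 markers of inhibitory neurons among them, 9 were above 0, 2 lay higher and 2 lower without overlap. The higher ones include Dlx1, a homeobox gene of interneurons named after its values were seen, with 43.7 and 49.3 against 41.5 and 27.7 CPM. The lower ones were Pvalb and Calb2. Pvalb, the calcium buffer of fast-spiking interneurons, had 25.4 and 25.5 against 61.8 and 39.4 CPM, and Calb2, the calcium buffer calretinin of other interneurons, had 39.8 and 30.4 against 80.7 and 50.1 CPM. In both genes control library 1 was high. Calb2 is also listed as a marker of the thalamus. Of 7 thalamus markers tested, 4 were above 0 with a median of 0.10, and 3 lay lower and 0 higher without overlap. Their median log2 difference was 0.23 in deletion library 1 and -0.98 in deletion library 2, and control library 1 minus control library 2 gave 0.88. The part of thalamic RNA in the libraries was not tested.

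Activity and growth factor genes, some of which act upstream of the miR-132/212 locus, gave no common direction. Of 26 immediate early genes tested, 18 were above 0, with a median of 0.16 that became -0.14 without deletion library 1. Fos, the AP-1 factor, had 10.3 and 59.1 against 92.2 and 76.5 CPM. Bdnf, which encodes the growth factor that activates the locus through CREB, had 40.0 and 123 against 161 and 169 CPM, and in both genes most of the gap came from deletion library 1. Of the neurotrophin receptors, Ntrk2 (TrkB, which binds this factor) had 528 and 403 against 330.3 and 372 CPM and Ntrk3 (TrkC, the receptor of neurotrophin-3) 60.5 and 79.3 against 99.0 and 122 CPM, 2 receptors on opposite sides.

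The microRNAs are also known from the circadian clock. Of 18 clock genes tested, 7 lay lower (17.8% of all genes) and 2 higher (14.7%) without overlap, and the median of -0.47 became 0.05 without deletion library 1. Per1, a clock gene that activity and glucocorticoids also induce, had 68.7 and 99.4 against 51.8 and 41.1 CPM, with deletion library 2 the higher one. Csnk1e, the kinase that marks Per proteins for degradation, had 54.7 and 85.5 against 110.2 and 133 CPM, and Nr1d2, a repressor of the clock loop, 69.2 and 109 against 127 and 155 CPM. For the machinery that makes and uses microRNAs, 14 of 17 tested genes were below 0 with a median of -0.24 that became 0.02 without deletion library 1. Tnrc6b, a partner of Argonaute, with 108 and 127 against 136 and 142 CPM, was the only 1 of the 17 with groups that did not overlap. Of all genes, 17.8% lay lower and 14.7% higher without overlap, so this count is no excess.

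For the main glial cells the lists had medians near that of all genes, -0.03. The medians were 0.02 for astrocyte markers (18 genes), -0.14 for oligodendrocyte markers (18) and 0.02 for microglia markers (17). Of the microglia markers, 5 lay higher and 2 lower without overlap, against 14.7% and 17.8% of all genes. The higher ones include the complement genes C1qa and C1qc and the receptor gene Fcrls. C1qa had 87.9 and 49.9 against 27.0 and 44.3 CPM, and C1qc 116 and 93.4 against 42.3 and 76.6 CPM. Fcrls had 105 and 70.6 against 38.5 and 53.3 CPM. In each of them control library 1 was the lower control. Over the microglia list, control library 1 minus control library 2 gave a median log2 difference of -0.43. Tmem119, a marker of resident microglia, had 22 and 171 against 302 and 360 counts, so the members did not share one direction. Vessel markers lay further from the median of all genes, with 12 of 18 above 0 and a median of 0.32, or 0.16 without deletion library 1. Tek, the receptor of angiopoietins, had 70.2 and 24.3 against 9.24 and 15.4 CPM.

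Genes for cytosolic ribosomes and for the respiratory chain set the libraries apart rather than the groups. The 48 ribosomal protein genes had a median log2 difference of 0.35 in deletion library 1 and -0.35 in deletion library 2, and control library 1 minus control library 2 gave 0.23. The 75 respiratory chain genes had 0.24, -0.26 and 0.29, and deletion library 2 was below both controls for 46 of them (34.2% of all genes). Atp5h, a subunit of ATP synthase, had 24.0 and 28.6 against 94.6 and 42.0 CPM, and Ndufs8, of complex I, 81.6 and 73.5 against 164 and 98.4 CPM, with control library 1 high in both.

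**Figure D5:**
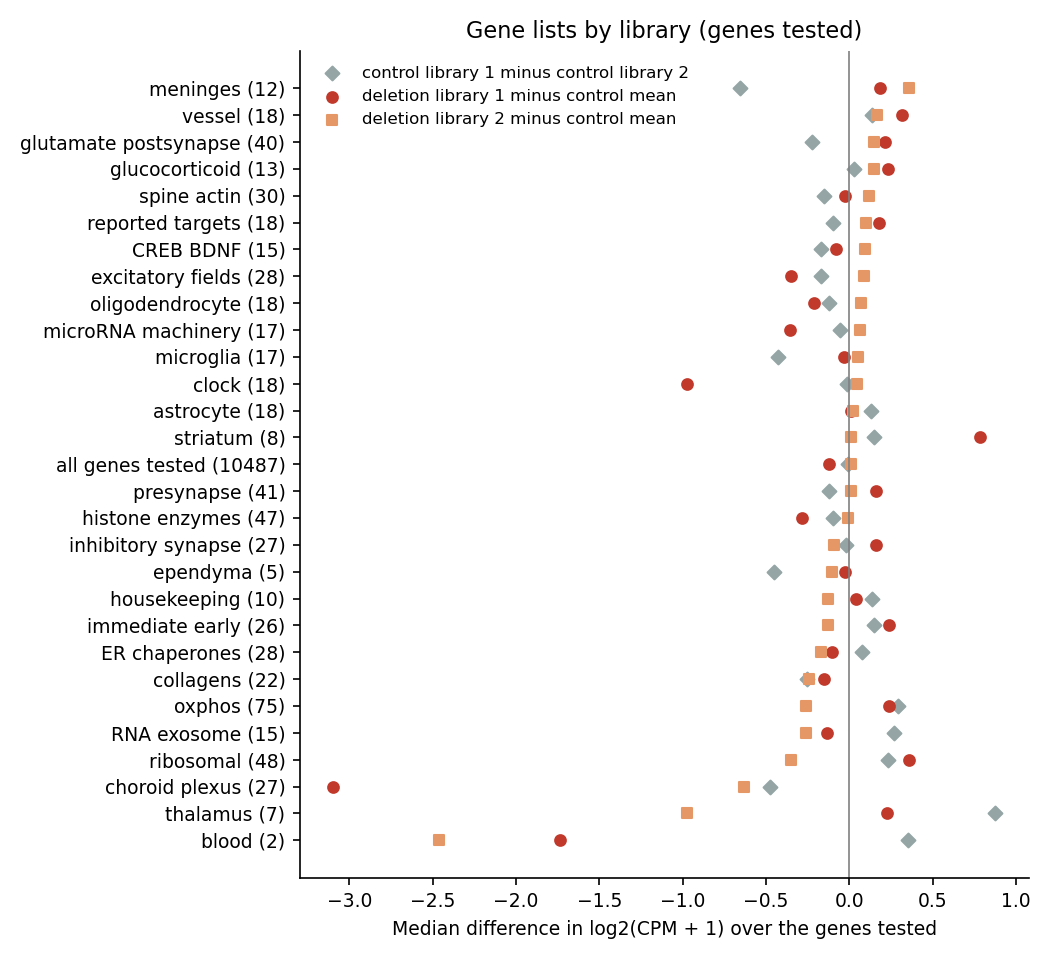
Median difference in log2(CPM + 1) over the tested genes of each list (number of genes in brackets): each deletion library minus the mean of the controls, and control library 1 minus control library 2. The choroid plexus list is at -3.10, -0.63 and -0.47, the reported targets at 0.18, 0.10 and -0.10, and all genes tested at -0.12, 0.01 and -0.01.

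Genes that another tool called or that were called without 1 library add few transcripts, and most rest on 1 library. By DESeq2, Sfxn4, a mitochondrial carrier, was lower, with 1 and 1 count against 151 and 118, and Pstpip1, a cytoskeletal adaptor of blood cells, was higher, with 379 and 25 against 0 and 0. Sfxn4 is thus alike in both libraries of each group, and in Pstpip1 the level came mainly from deletion library 1. Without deletion library 1 the genes called besides Ttr were Mrpl15 (1063 and 92 against 753 and 725 counts), AI597479 (397 and 166 against 725 and 670), 2210016F16Rik (302 and 13 against 246 and 178), Tiam2 (489 and 192 against 496 and 760), Rps10 (10 and 0 against 166 and 85), Tagln (365 and 0 against 81 and 229) and, higher, Thsd7b (0 and 380 against 6 and 41). In Mrpl15, a mitochondrial ribosome subunit, in 2210016F16Rik and in Tagln, deletion library 1 lay above both controls, opposite to deletion library 2. In Thsd7b, deletion library 1 lay below both controls and deletion library 2 above both. Among these 8, Ttr, AI597479 and Rps10 were lower in both deletion libraries.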

How the data were processed

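Polyadenylated RNA of hippocampi was sequenced on an Illumina Genome Analyzer II, per the labels. Alignment to mm9 used Bowtie 0.12.7, per the design text and the submitters' processing notes. The values used are the deposited raw counts of reads per gene, whole numbers without scaling. How reads were counted, on which annotation and with what filter is not given in the sources used here. Relative abundances from Cufflinks 1.2, which the design text names, 4 further columns of values per library and the authors' own comparison columns were not used.

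Of 10542 lines below the header, 1 repeated header was dropped. For 19 genes whose symbol had been turned into a date, the symbol was restored from the RefSeq accession; 10438 accessions matched a RefSeq gene table. Starts in the table count from 0, so 1 was added.

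Counts of the 4 libraries were fitted in R 4.3.3 with edgeR 4.0.16 (quasi-likelihood test, robust, TMM, filterByExpr, 10487 genes kept, Benjamini-Hochberg adjustment, threshold 0.05). CPM values use TMM library sizes with factors from 0.967 to 1.02, and log2 differences between libraries use a pseudocount of 1 CPM. Alternatives were DESeq2 1.42.0, limma-voom (limma 3.58.1), other scalings and filters, each library left out, and a replicate block. The script was tested on simulated data. The chi-square per degree of freedom between replicate counts was 31.2 for controls and 148 for the deletion, so no pair was counted as 1 sample. Reads carry no molecular identifiers, so floors cover counting error only.

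Seed sites were counted in the 3′ untranslated region of 1 GENCODE vM1 transcript per gene (NCBIM37, the same sequence as mm9), and microRNA sequences are from RefSeq. Genes named are the 10 of smallest p in each direction with at least 10 counts in every library and groups that do not overlap, up to 4 of smallest p in each list, any member of the choroid plexus, target and chaperone lists, genes called by DESeq2, limma-voom or without 1 library other than deletion library 2, genes within 200 kb of Mir132, the 5 extremes of deletion library 1 in each direction, and a few fixed genes; Snap25, Calb1, Prox1 and Dlx1 were added as markers of the tissue after their values were seen. The comparison and the lists were chosen with earlier results of these data known. Some members of the lists are not reported by name here, and the counts and medians of the lists include them.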

Additional observations from a re-analysis of the deposited data

How the results depend on the processing

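The count of genes called was 0 by edgeR, and also 0 with DESeq2 size factors, upper-quartile factors, no filter, at least 10 counts in each library, a mean of 1000 counts or more (2336 genes, chosen after seeing the data) and the replicate block; it was 5 by DESeq2 and 1 by limma-voom, and 1 to 4527 when 1 library was left out. The choroid plexus median of -1.63 stayed below 0 in every setting run; it was -3.03 by limma-voom, -3.17 with the replicate block, -3.58 to -0.87 with 1 library left out, -0.95 with at least 10 counts in each library and -0.97 with a mean of 1000 counts or more (3 genes). The block used the number in the column name. Same-numbered libraries did not deviate together (correlation of deviations 0.0147), and the labels do not tie the numbers to a pairing.

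Part of the 104 named genes were chosen for groups that do not overlap, which can hardly turn when 1 library is left out. DESeq2 size factors, upper-quartile factors and no filter turned none of the 104. Of 1155 values of these genes under all settings, 1121 kept their direction, a share that these choices raise. Those that turned were, by limma-voom, Hic1 (-1.52), Prox1 (-3.55), Thsd7b (-0.089), Tagln (-3.50) and Aff3 (-4.03), and with the replicate block Hic1 (-1.55), Prox1 (-3.04), Thsd7b (-0.12), Tagln (-2.86) and Aff3 (-3.06). Leaving out 1 library gave log2 fold changes on both sides of 0 for Hic1 (-7.50 to 2.11), Ovca2 (-0.19 to 0.61), Rtn4rl1 (-0.44 to 0.72), Calb1 (-0.38 to 0.51), Prox1 (-10.72 to 1.13), Igf2 (-0.84 to 0.25), Aqp1 (-8.86 to 0.36), Atp1b1 (-0.0016 to 0.17), Mapt (-0.11 to 0.52), Arhgap32 (-0.67 to 0.24), Mrpl15 (-3.16 to 0.49), Thsd7b (-7.65 to 4.90), 2210016F16Rik (-4.16 to 0.49), Tagln (-10.38 to 1.24), Aff3 (-11.55 to 1.04), Ccdc77 (-1.78 to 4.70), Cxcl16 (-0.70 to 4.08) and Ankrd23 (-0.49 to 4.32). The cause was not tested. The median of 12 of the 27 other lists had the other sign without deletion library 1, of 4 without deletion library 2, of 3 and 6 without control libraries 1 and 2, of 6 each by limma-voom and with the replicate block, of 3 each with upper-quartile factors and at least 10 counts in each library, of 1 each by DESeq2 and with its size factors, and of 0 with no filter; at a mean of 1000 counts or more it was 9 of 21. Genes at low counts are least certain: at a total like that of the others, deletion library 1 had no count for 26.2% of genes expected at 100 to 200 counts and for 6.51% at 200 to 500.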

Other observations

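Deletion library 1 held values outside the range of the other 3 libraries in both directions. The 5 genes at 0 in it with the highest mean CPM elsewhere were Prlr, Slc6a15, Vps13b, Fndc3a and Aff3. Slc6a15, a neuronal transporter of branched-chain amino acids, had 771 counts in deletion library 2 and 920 and 679 in controls, so a gene well measured in 3 libraries was missing from the fourth. Vps13b, a lipid transfer protein of the Golgi, had 513 against 835 and 672 counts, Fndc3a 592 against 837 and 395, and the transcription factor gene Aff3 850 against 338 and 398.

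In the other direction, Ccdc77 had 917 counts in deletion library 1, 11 in deletion library 2 and 48 and 22 in controls, which is 20.0 times the highest of the other 3 in CPM. Magmas, an import protein of mitochondria, had 467 and 26 against 13 and 21 counts (19.5 times). Cxcl16, a chemokine, had 534 and 21 against 35 and 27 (16.0 times), Ankrd23 545 and 21 against 36 and 18 (15.9 times), and Ccdc162 559 and 33 against 17 and 35 (14.5 times). In these 5 genes deletion library 2 stayed near the controls.

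Some genes had no count in either library of a group. For 10 genes both deletion libraries were at 0 with both controls above 0, and for 11 genes the reverse held, so Otx2 belongs to a small set that is matched in size by its opposite. Of the first set, chosen here after their values were seen, Cartpt, the gene of the CART neuropeptide, had 23 and 137 counts in controls, and Nppc, of C-type natriuretic peptide, 40 and 112.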
